A study of Mus musculus with 18 samples.

Results

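Angptl4, a secreted inhibitor of lipoprotein lipase, was followed with 8 other genes of fatty acid handling (Pdk4, Cpt1a, Lpl, Cd36, Fabp3, Fabp4, Fabp5 and Plin2) in Tcf21-lineage cells of the neonatal mouse heart. These 9 genes are 9 of 55453 gene symbols in the count table and 9 of the 16170 symbols that passed the filter on low counts. They were chosen by the P10 to P13 values of Angptl4, which were already known, and the other 8 were added as targets of the peroxisome proliferator-activated receptors (PPARs) or as partners in the same pathway, to ask whether Angptl4 rises alone. The P10 to P13 values are therefore given as a description, without a test.

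The cells came from Tcf21-MerCreMer; Rosa-mTmG pups on a C57BL/6J background, in which tamoxifen given at P1 (postnatal day 1) switches on membrane GFP in cells with an active Tcf21 locus, mainly resident cardiac fibroblasts and their descendants. The GFP+ cells of the apical ventricles were collected by sorting from un-manipulated pups at P2 (P2 baseline) and P10 (P10 baseline), and 3 days after sham surgery or resection of the cardiac apex at either age. The groups collected at P5 are P2 sham +3 days and, with the apex resected, P2 resected +3 days. Those collected at P13 are P10 sham +3 days and, with the apex resected, P10 resected +3 days. All pups of all groups carried both transgenes and received tamoxifen. Sham and resected pups shared hypothermic anesthesia, buprenorphine and an opened chest, none of which the baseline pups had, so 3 days of growth and sham surgery cannot be told apart in a comparison of a sham group with its baseline. Hearts of P2 and P5 pups were digested for a shorter time than hearts of P10 and P13 pups, which cannot be told apart from age.

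Each group held 3 libraries, whose counts on genes summed to between 10462737 and 22980554. The sources used here do not say whether the libraries of a group came from separate pups or pools, so p-values measure the spread between these libraries. The sorted identity was checked against markers. The 12 fibroblast markers summed to 48884 to 120600 CPM (counts scaled to library size), led by Col3a1 and Col1a2. The 12 cardiomyocyte markers summed to 165 to 1509 CPM, 10 endothelial markers to 196 to 604 CPM, 12 macrophage markers to 7.76 to 1138 CPM, 9 mural cell markers to 560 to 2041 CPM, 7 red blood cell markers to at most 480 CPM and 8 epicardial markers to at most 59.4 CPM. Adipocytes use many of the same genes. The 10 adipocyte markers summed to 54.4 to 137 CPM, most of it Fasn (mean 81.8 CPM). Fasn and Lipe (mean 7.16 CPM) were counted in every library, and Adrb3 (1.78 CPM) and Slc7a10 (1.25 CPM) in most. The adipocyte markers Lep and Retn had no count in any library, and Adipoq was counted in a single library, P10 resected +3 days replicate 1, with 10 reads. In bulk RNA, fewer cells of a type and less RNA per cell cannot be told apart.

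Fatty acids reach cells either free or as triglyceride in lipoproteins. Lipoprotein lipase releases them at the capillary wall, Angptl4 inhibits that enzyme, Cd36 helps fatty acids across the membrane, and the fatty acid binding proteins (Fabp3, Fabp4, Fabp5) carry them inside the cell. Perilipin 2 (Plin2) coats the lipid droplets that store them, Cpt1a admits them to mitochondria for oxidation, and Pdk4 restrains pyruvate dehydrogenase so that less glucose is oxidized. Fatty acids activate PPARs, which bind DNA with a retinoid X receptor and raise many of these genes. Angptl4 is also known to respond to fasting, glucocorticoids and low oxygen.

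RefSeq promoter sequence was at hand for 5 of the 9 genes (Pdk4, Cpt1a, Cd36, Fabp3 and Plin2), and Angptl4, Lpl, Fabp4 and Fabp5 are named only. The core hexamer of PPAR elements, AGGTCA, searched on both strands, occurred in the 250 bases before the start in Cpt1a, Cd36 and Plin2, in each case on the minus strand of the gene as TGACCT, and did not occur in those of Pdk4 and Fabp3. Of all 32851 promoters, 14.0% held these letters. The full direct repeat AGGTCANAGGTCA occurred in 0.0335% of promoters and in none of the 5. The sequences with a hexamer are shown because PPAR responsiveness is what the 9 genes were listed for. They are written 5′ to 3′ on the gene's own strand in GRCm38.p6, and capitals mark the hexamer, which begins 94 bases before the start in Cpt1a (chr19:3323051-3323300, plus strand), 228 in Cd36 (chr5:17835897-17836146, minus strand) and 218 in Plin2 (chr4:86670060-86670309, minus strand).
Cpt1a: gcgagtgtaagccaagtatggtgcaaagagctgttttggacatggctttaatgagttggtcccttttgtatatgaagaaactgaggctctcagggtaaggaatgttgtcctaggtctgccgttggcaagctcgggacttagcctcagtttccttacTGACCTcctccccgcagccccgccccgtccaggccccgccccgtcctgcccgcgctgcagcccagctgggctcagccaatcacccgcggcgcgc
Cd36: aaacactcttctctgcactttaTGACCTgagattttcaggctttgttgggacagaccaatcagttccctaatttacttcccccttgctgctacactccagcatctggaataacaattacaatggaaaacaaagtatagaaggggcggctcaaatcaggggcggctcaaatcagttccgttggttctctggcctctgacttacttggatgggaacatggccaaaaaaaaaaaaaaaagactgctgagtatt
Plin2: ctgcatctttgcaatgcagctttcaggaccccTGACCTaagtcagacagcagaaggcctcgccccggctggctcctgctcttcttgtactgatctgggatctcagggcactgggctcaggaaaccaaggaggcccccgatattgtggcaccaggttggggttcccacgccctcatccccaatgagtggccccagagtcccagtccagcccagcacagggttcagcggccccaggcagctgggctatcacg
These matches are letters in a window and were not compared with any measure of binding. The start is that of the RefSeq entry used. In Cpt1a and Cd36 it lies inside the annotated gene and not at its outer end, and other starts of these genes were not searched.

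Angptl4 (chr17:33773750-33781830, minus strand, protein coding, GRCm38) was 2.85-fold higher in P10 sham +3 days and 2.83-fold higher in P10 resected +3 days than at P10 baseline. It measured 163, 148 and 129 CPM in the 3 P10 baseline libraries. It measured 405, 362 and 483 CPM after sham surgery at P10, and 369, 422 and 452 CPM after resection at P10. All 6 P13 libraries lay above all 3 P10 baseline libraries, and the sham and resected libraries overlapped each other. On the log2 scale the difference from P10 baseline was 1.51 (SE 0.20) in the sham group and 1.50 (SE 0.20) in the resected group. These values chose the gene. They carry no test, and neither does any other comparison of Angptl4 that holds P10 or P13 libraries. Of the 16170 genes tested, edgeR called 0.00618% in the sham comparison and 0.0989% in the resected one. DESeq2 called 0.581% and 0.730% of the 28759 genes to which it gave a p-value.

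No such step was seen over the same 3 days after sham surgery at P2. Angptl4 measured 134, 118 and 107 CPM at P2 baseline and 127, 135 and 148 CPM in P2 sham +3 days, and the ranges of these groups overlapped. The log2 difference was 0.19 (SE 0.20, edgeR quasi-likelihood test with Benjamini-Hochberg adjustment, adjusted p = 0.924). The difference between the 3-day sham changes at P10 and at P2 was 1.32 on the log2 scale (SE 0.28), which uses the libraries that chose the gene and is given without a test.

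After resection at P2 the values were 186, 197 and 272 CPM, above every P2 baseline and every P2 sham +3 days library. Marker sums also separated P2 resected +3 days from P2 baseline. Cardiomyocyte markers summed to 320 to 937 CPM after resection and 1119 to 1509 CPM at baseline, macrophage markers to 75.8 to 465 CPM and 15 to 72.0 CPM, and fibroblast markers to 61926 to 96109 CPM and 48884 to 57057 CPM. In P2 sham +3 days these sums were 936 to 1283, 7.76 to 204 and 54560 to 65138 CPM, which overlapped the resected group, for cardiomyocyte markers in 1 library of each group (937 CPM resected and 936 CPM sham). The part of these cells in the Angptl4 values was not tested. Against P2 baseline, the fold change was 1.82 (log2 0.87, SE 0.20) with an adjusted p of 0.191 in edgeR, whereas DESeq2 gave a log2 change of 0.86 with an adjusted p of 0.00214 and called 0.369% of all genes. Against P2 sham +3 days the log2 change was 0.68 (SE 0.20). Its unadjusted p was 0.00304, but its Benjamini-Hochberg adjusted p was 1.0 in edgeR, and with DESeq2 34 genes (0.118%) passed and Angptl4 did not. The step after resection at P2 was therefore larger than the spread between these libraries but did not pass the threshold over all genes in the main test. In both P2 comparisons, groups without overlap were common: 12.5% of all genes did not overlap between P2 resected +3 days and P2 baseline, and 8.47% between P2 resected +3 days and P2 sham +3 days.

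At P10 the sham and resected libraries overlapped. The log2 difference in Angptl4 between P10 resected +3 days and P10 sham +3 days was -0.01 (SE 0.20). The resection effect at P10 minus that at P2 was -0.69 on the log2 scale (SE 0.28). Both values are descriptions, since they rest on libraries that chose the gene.

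By age, the baseline groups overlapped in Angptl4, with a log2 difference of 0.29 between P10 and P2 (SE 0.20). After sham surgery it was 3.05-fold higher at P13 than at P5 (log2 1.61, SE 0.20), and after resection 1.90-fold higher (log2 0.92, SE 0.20). All 3 differences are given without a test. In order of mean level, the groups ran from P10 sham +3 days (417 ± 61.4 CPM, SD, n = 3) and P10 resected +3 days (414 ± 42.4) through P2 resected +3 days (218 ± 46.7) to P10 baseline (146 ± 16.9), P2 sham +3 days (137 ± 10.5) and P2 baseline (120 ± 13.4). The first pair overlapped, and so did each neighbouring pair among the last 3 groups.

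**Figure D1:**
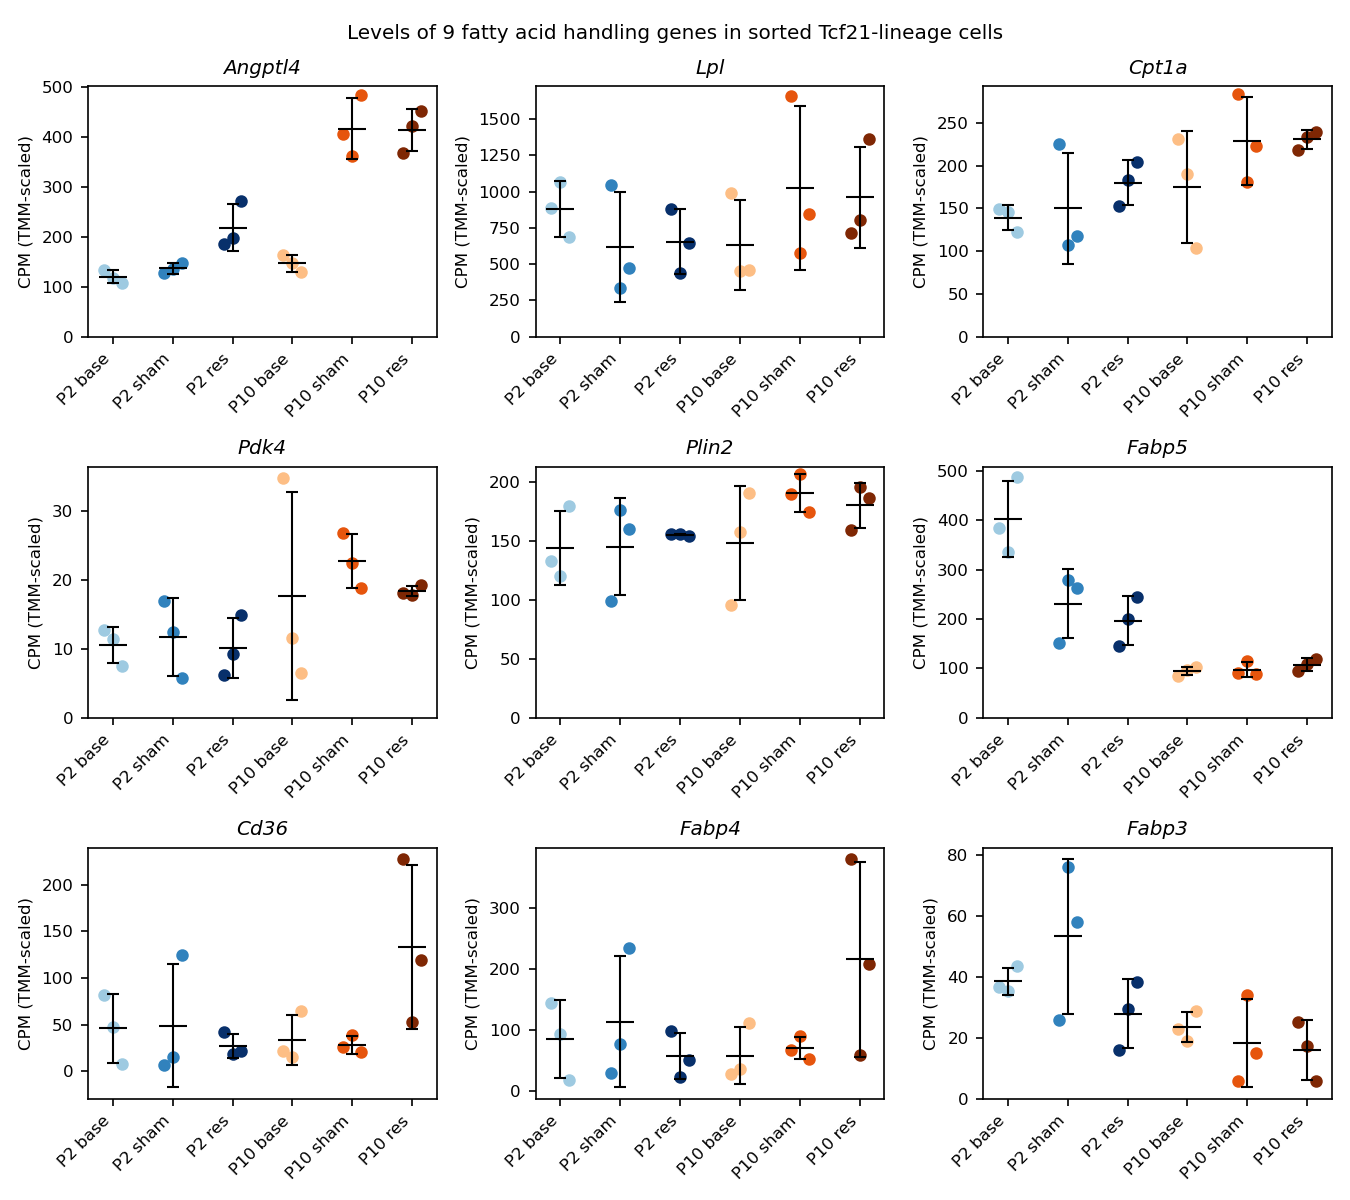
Level of each of the 9 genes in the 18 libraries, in CPM on a linear axis, with the 6 groups of 3 libraries along the x axis (base, baseline; sham and res, 3 days after sham surgery or resection); points are libraries, the horizontal mark is the mean and the bars are ± 1 SD. Angptl4 lay between 362 and 483 CPM in the 6 P13 libraries and between 107 and 272 CPM in the other 12, Fabp5 was highest at P2 baseline, and Cd36 and Fabp4 spread widely within groups.

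Of the other 8 genes, none had P13 libraries that all lay above or all below the P10 baseline libraries, after sham surgery or after resection. Groups without overlap were found for 10.0% of all genes in the sham comparison and 11.9% in the resected one. The 9 genes, Angptl4 included, had a median log2 change of 0.36 after sham surgery and 0.40 after resection. Over all genes tested the medians were -0.02 and -0.01. Of the 9, 7 had a log2 change above 0 after sham surgery and 8 after resection. Angptl4, which these values chose, is among them. Below 0 were Cd36 and Fabp3 after sham surgery and Fabp3 after resection. The share of all genes above 0 was not computed. When 1 library was left out, the log2 change after sham surgery ranged from 0.17 to 1.18 for Lpl, 0.12 to 0.64 for Cpt1a, 0.13 to 0.59 for Plin2, -0.03 to 1.32 for Pdk4 and -0.08 to 0.11 for Fabp5, so these directions held for Lpl, Cpt1a and Plin2 and not for Pdk4 and Fabp5. After resection it ranged from 0.26 to 1.08 for Lpl, 0.13 to 0.65 for Cpt1a, 0.05 to 0.51 for Plin2, 0.10 to 0.27 for Fabp5 and -0.33 to 1.01 for Pdk4, the gene of these whose direction did not hold.

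Lipoprotein lipase itself (Lpl, chr8:68880491-68907448, plus strand), the enzyme that Angptl4 inhibits, was the most abundant of the 9 in CPM. At P10 baseline it measured 992, 451 and 457 CPM. It measured 1658, 577 and 843 CPM in P10 sham +3 days and 714, 803 and 1363 CPM in P10 resected +3 days. One library of each group was far above the others, and the groups overlapped. These were replicate 1 at P10 baseline and in P10 sham +3 days, and replicate 3 in P10 resected +3 days. Each was also the highest of its group for Cpt1a and Pdk4. Replicate 1 was likewise highest for these genes and Lpl in P2 sham +3 days, but no library was so at P2 baseline or in P2 resected +3 days. The log2 change from P10 baseline was 0.70 (SE 0.45) after sham surgery and 0.60 (SE 0.45) after resection, and the first became 1.18 without P10 baseline replicate 1 and 0.17 without P10 sham +3 days replicate 1. At P2 the values ran from 336 to 1069 CPM, and the log2 changes were -0.51 (SE 0.45, edgeR, adjusted p = 0.887) after sham surgery and -0.43 (SE 0.45, edgeR, adjusted p = 1.0) after resection. Per kilobase of the principal transcript, the mean level of Lpl at P10 baseline was 154 CPM and that of Angptl4 44.3 CPM, and in P10 sham +3 days they were 249 and 126 CPM. The order of the last pair turned when all annotated exon bases were used as length (97.9 for Lpl and 118 for Angptl4), so only the baseline order is independent of the length chosen.

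Cpt1a and Pdk4, the genes of fatty acid entry into mitochondria and of fuel choice, overlapped between P10 and P13. Cpt1a (chr19:3322334-3385733, plus strand) measured 232, 190 and 104 CPM at P10 baseline, 283, 181 and 223 CPM in P10 sham +3 days, and 218, 234 and 240 CPM in P10 resected +3 days. It ranged from 108 to 225 CPM in the 9 younger libraries. The log2 changes from P10 baseline were 0.39 (SE 0.30) and 0.40 (SE 0.30), and the groups overlapped. Pdk4 (chr6:5483351-5496309, minus strand) measured 34.8, 11.6 and 6.51 CPM at P10 baseline, 26.7, 22.4 and 18.9 CPM in P10 sham +3 days, and 18.1, 17.8 and 19.2 CPM in P10 resected +3 days. The 9 younger libraries held 5.74 to 16.9 CPM of Pdk4, and P10 baseline replicate 1 was above every other library. Its log2 change after sham surgery was 0.36 (SE 0.52), and 1.32 without that library, while after resection it was 0.06 (SE 0.52), 1.01 without it and -0.33 without P10 baseline replicate 3. Pdk4 was the scarcest of the 9 per kilobase in every group, by either length. Neither gene passed the test in any comparison outside the P10 to P13 step. The largest difference of Pdk4 there was between P13 and P5 after sham surgery (log2 0.95, SE 0.52, edgeR, adjusted p = 0.385). Its libraries did not overlap in that comparison, as in 16.7% of all genes.

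Plin2 (chr4:86648386-86670060, minus strand), the lipid droplet coat protein, measured 95.9, 158 and 191 CPM at P10 baseline, 190, 207 and 175 CPM in P10 sham +3 days, and 159, 196 and 187 CPM in P10 resected +3 days. The lowest of the P10 baseline libraries was below every P13 library and the highest was within their range, while the 9 younger libraries held 98.7 to 180 CPM. The log2 changes were 0.36 (SE 0.26) after sham surgery and 0.28 (SE 0.26) after resection. Plin2 had the narrowest range of the 9 over the 18 libraries, 2.16-fold from lowest to highest, and passed the test in no comparison.

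**Figure D2:**
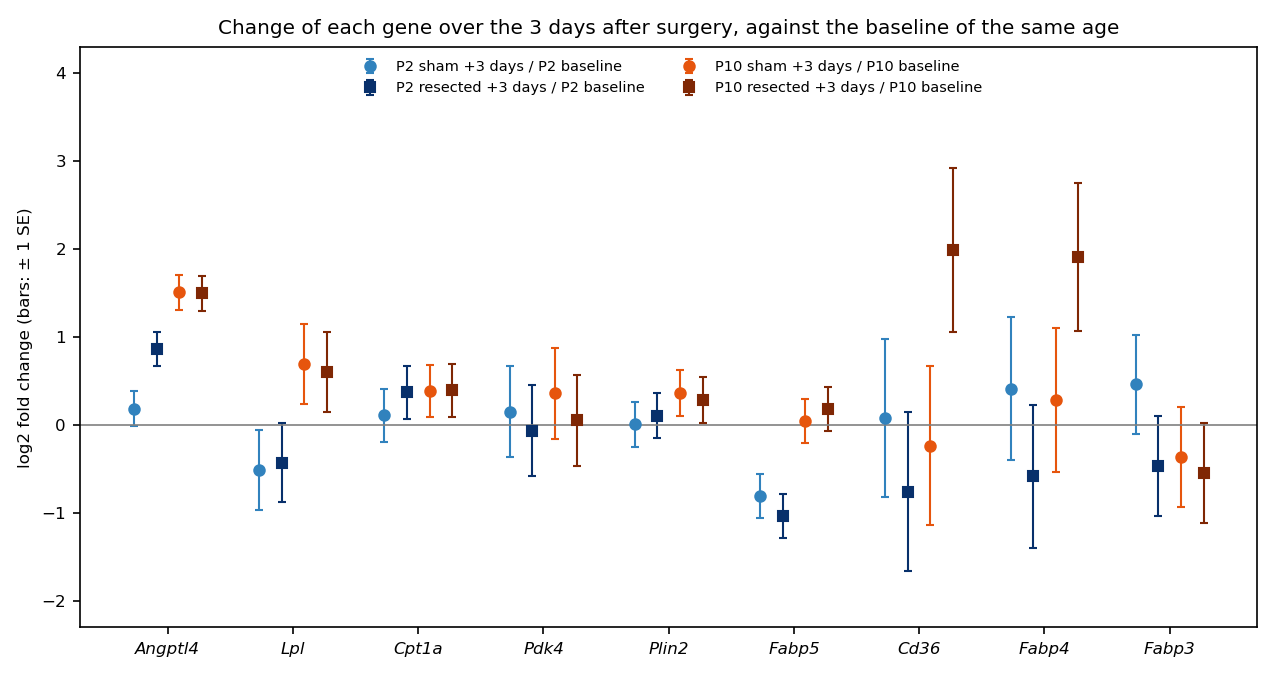
Log2 fold change (y axis) of each of the 9 genes (x axis) over the 3 days after sham surgery (circles) or resection (squares), against the baseline of the same age, at P2 (blue) and at P10 (orange and brown); bars are ± 1 SE of the edgeR fit to all 18 libraries. Angptl4 stood at 1.51 and 1.50 at P10 with an SE of 0.20, and Cd36 and Fabp4 after resection at P10 had larger values with an SE of 0.93 and 0.84.

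Of the fatty acid binding proteins, Fabp5 was the one that passed the main test. The log2 difference of P10 baseline from P2 baseline was -0.71 for Fabp3 (SE 0.57, edgeR, adjusted p = 0.553), whose groups did not overlap, as in 22.4% of all genes, and -0.57 for Fabp4 (SE 0.82, edgeR, adjusted p = 0.786). After sham surgery the difference of P13 from P5 was -0.69 for Fabp4 (SE 0.82, edgeR, adjusted p = 0.762). When 1 library was left out, this value ran from -1.15 to 0.41 and the baseline difference of Fabp4 from -1.47 to 0.06, so neither direction held. Fabp5 (chr3:10012548-10016607, plus strand) fell from P2 to P10. It measured 383, 336 and 488 CPM at P2 baseline, 84.6, 97.1 and 102 CPM at P10 baseline, and 87.7 to 119 CPM in the 6 P13 libraries. The highest P10 or P13 library was below the lowest P2 or P5 library. P10 baseline was 4.26-fold lower than P2 baseline (log2 -2.09, SE 0.26, edgeR, adjusted p = 0.000213). Fabp5 was the 1 gene of the 9 called there, where 709 of 16170 genes (4.38%) were called. From P5 to P13 it was 2.37-fold lower after sham surgery (log2 -1.25, SE 0.25, edgeR, adjusted p = 0.00952), and the adjusted p was 0.0553 without P10 sham +3 days replicate 3. Over all genes 3.18% were called there, and Fabp5 was the 1 gene called among the 8 other than Angptl4. After resection the P13 against P5 difference of Fabp5 was -0.87 (SE 0.25, edgeR, adjusted p = 0.141), and DESeq2 gave an adjusted p of 0.0266, with 1.74% of all genes called.

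Fabp5 was already lower at P5 in point estimate. It measured 152, 280 and 262 CPM in P2 sham +3 days and 145, 200 and 244 CPM in P2 resected +3 days, all below the P2 baseline libraries. Groups without overlap made up 9.96% of all genes after sham surgery and 12.5% after resection. The log2 changes were -0.80 (SE 0.25, unadjusted p = 0.00519, adjusted p = 0.496) and -1.04 (SE 0.25, unadjusted p = 0.000693, adjusted p = 0.261), neither of which passed in edgeR, and the second passed in DESeq2 (adjusted p = 0.0108). No gene was called by edgeR in the first of these comparisons, with 1229 genes at an unadjusted p under 0.05 and 180 called by DESeq2, and 2 genes (0.0124%) were called in the second. From P5 after sham surgery to P10 baseline the change was -1.29 (SE 0.25, edgeR, adjusted p = 0.0151), and 1.32% of all genes were called. That call was lost without P2 sham +3 days replicate 2 or 3 or P10 baseline replicate 2 or 3, with adjusted p-values of 0.0628, 0.0668, 0.0808 and 0.0555. From P10 to P13, when Angptl4 went up, Fabp5 stayed within its spread, at 0.04 (SE 0.25) after sham surgery and 0.18 (SE 0.25) after resection.

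Cd36 (chr5:17781690-17888801, minus strand), the fatty acid transporter, and Fabp4 (chr3:10204088-10208576, minus strand), a binding protein of adipocytes, macrophages and capillary endothelium, varied widely and together. Cd36 measured 26.2, 39.2 and 20.2 CPM in P10 sham +3 days and 227, 52.4 and 119 CPM in P10 resected +3 days, and these groups did not overlap. It measured 21.7, 14.7 and 64.5 CPM at P10 baseline and 6.22 to 125 CPM in the 9 libraries of the 3 younger groups. The log2 difference between resected and sham at P10 was 2.22 (SE 0.94, unadjusted p = 0.0296, edgeR adjusted p = 1.0), and 1.59 without P10 resected +3 days replicate 1. Fabp4 measured 67.3, 89.8 and 52.4 CPM in P10 sham +3 days and 379, 59.1 and 208 CPM in P10 resected +3 days, which overlapped. It measured 26.5, 34.7 and 111 CPM at P10 baseline and 17.4 to 234 CPM in the 9 younger libraries. Against P10 baseline the log2 change of Cd36 was -0.23 (SE 0.90) after sham surgery, 0.07 with the replicate block and 0.65 without P10 baseline replicate 3, and 1.99 (SE 0.93) after resection. The last became 1.36 without P10 resected +3 days replicate 1. The log2 change of Fabp4 from P10 baseline was 0.29 (SE 0.81) after sham surgery, -0.06 without P10 baseline replicate 1 and 1.19 without P10 baseline replicate 3. After resection it was 1.91 (SE 0.84), and 1.22 without P10 resected +3 days replicate 1. Between resected and sham at P10 the log2 difference of Fabp4 was 1.63 (SE 0.83, edgeR, adjusted p = 1.0) and 0.94 without P10 resected +3 days replicate 1. Without the filter on low counts edgeR called both (adjusted p = 2.85e-05 for Cd36 and 0.00257 for Fabp4), with 0.263% of all genes called, and DESeq2 called neither. Between P5 and P13 after resection the log2 difference was 2.29 for Cd36 (SE 0.94, edgeR, adjusted p = 0.441) and 1.93 for Fabp4 (SE 0.84, edgeR, adjusted p = 0.497), and these too were called without the filter (adjusted p = 1.9e-06 and 8.24e-06, with 1.82% of all genes called) and not by DESeq2. No gene was called in the main test of P10 resected +3 days against P10 sham +3 days, with 661 at an unadjusted p under 0.05 and 42 (0.146%) called by DESeq2, and 8.68% of genes did not overlap.

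One library, P10 resected +3 days replicate 1, was the highest for Cd36 and Fabp4 and also stood out in markers of other cell types. It was the highest of the 18 for the sum of endothelial markers (604 CPM), of epicardial markers (59.4 CPM) and of red blood cell markers (480 CPM), and it held all 10 reads of Adipoq, all 13 of Cidec and all 106 of Cfd. The sum of endothelial markers ranged from 290 to 517 CPM in P10 sham +3 days and from 350 to 604 CPM in P10 resected +3 days, which overlapped. Across the P10 window this sum had a Pearson correlation of 0.535 with Cd36 (exact permutation p = 0.139, adjusted p = 0.213) and of 0.572 with Fabp4 (exact permutation p = 0.106, adjusted p = 0.212), and -0.0837 and 0.225 without the 2 farthest libraries. In the P2 window the Pearson correlations were 0.664 (exact permutation p = 0.0528, adjusted p = 0.155) and 0.625 (exact permutation p = 0.0736, adjusted p = 0.172), and 0.8003 and 0.9177 without the 2 farthest libraries. By Spearman they were 0.717 (exact permutation p = 0.0369, adjusted p = 0.0861) and 0.767 (exact permutation p = 0.0214, adjusted p = 0.0599). None of the 4 relations passed after adjustment. In most libraries the larger part of this sum was a single gene, Tek. The tests therefore cannot decide whether Cd36 or Fabp4 followed the other 9 endothelial markers, which was not tested. Tek, which encodes the angiopoietin receptor, had a mean of 246 CPM over the 18 libraries. It had 221 CPM in P10 resected +3 days replicate 1 and its highest value, 454 CPM, in P10 sham +3 days replicate 1. The other 9 endothelial markers together measured 63.0, 187 and 57.6 CPM in P10 sham +3 days, 382, 95.0 and 149 CPM in P10 resected +3 days, and 52.8, 109 and 230 CPM at P10 baseline. The sum of adipocyte markers ranged from 62.7 to 105 CPM and from 73.0 to 101 CPM in the same groups, and was mostly Fasn, a fatty acid synthase that is not restricted to adipocytes, with a mean of 81.8 CPM over the 18 libraries. Adipoq, Plin1, Cidec and Cfd had means of 0.293 CPM or less, and Lep and Retn were at 0. The part of these cells in the values of Cd36 and Fabp4 was not tested.

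Across the 9 libraries of the P10 window (P10 baseline and both P10 +3 days groups), Cd36 and Fabp4 in log2 CPM had a Pearson correlation of 0.939 (exact permutation p = 0.000276, adjusted over 14 relations p = 0.00193) and a Spearman correlation of 0.900 (exact permutation p = 0.00203, adjusted p = 0.0142). Without the 2 libraries farthest from the median of Cd36 the Pearson correlation was 0.775. Across the 9 libraries of the P2 window the Pearson correlation was 0.897 (exact permutation p = 0.00161, adjusted p = 0.00751), and 0.951 without the 2 farthest libraries. Over all 18 libraries, the genes most like Fabp4 among 9358 with a mean of at least 10 CPM were Cd36 (Pearson 0.914), Gpihbp1 (0.898) and Cav1 (0.821). Those most like Cd36 were Fabp4, Cav1 (0.889) and Gpihbp1 (0.830). Gpihbp1 anchors lipoprotein lipase on capillary endothelium, and Cav1 forms caveolae. These lists were drawn up for Cd36, Fabp4 and Fabp3 after their values had been seen.

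Fabp3 (chr4:130308595-130315463, plus strand), the heart-type fatty acid binding protein that is abundant in cardiomyocytes, followed cardiomyocyte markers within the P10 window. It measured 22.9, 18.9 and 28.7 CPM at P10 baseline, 5.84, 34.0 and 14.9 CPM in P10 sham +3 days, and 25.3, 17.2 and 5.75 CPM in P10 resected +3 days. In the same order, the 12 cardiomyocyte markers summed to 711, 537 and 677 CPM, to 165, 837 and 285 CPM, and to 732, 447 and 249 CPM. It ranged from 16.0 to 75.9 CPM in the 9 younger libraries. Within the P10 window the libraries with the least Fabp3 were those with the fewest cardiomyocyte transcripts. There the Pearson correlation was 0.941 (exact permutation p = 3.58e-05, adjusted p = 0.000501), the Spearman correlation was 0.933 (exact permutation p = 0.00075, adjusted p = 0.0105), and the Pearson correlation was 0.908 without the 2 farthest libraries. Within the P2 window it was 0.682 (exact permutation p = 0.0554, adjusted p = 0.155) and 0.339 without the 2 farthest. The 5 genes most like Fabp3 over the 18 libraries were Myl3 (0.958), Tnnc1 (0.950), Myl2, Tnni3 and Csrp3, all genes of the sarcomere or its Z-disc. Fabp3 passed the main test in no comparison, and its difference between P13 and P5 after sham surgery (log2 -1.55, SE 0.58, edgeR, adjusted p = 0.183) was called only without the filter on low counts (adjusted p = 0.0110, 3.15% of all genes called). About 9.72% and 9.84% of its exon bases lie opposite exons of Gm10570 and Zcchc17, and reads were counted without strand.

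Angptl4 was set beside the same marker sums. In the P2 window its Pearson correlation was -0.470 with cardiomyocyte markers (exact permutation p = 0.185, adjusted p = 0.235), 0.0790 with endothelial markers (exact permutation p = 0.839, adjusted p = 0.904) and 0.517 with macrophage markers (exact permutation p = 0.152, adjusted p = 0.213). By Spearman the last was 0.767 (exact permutation p = 0.0214, adjusted p = 0.0599). None of these passed after adjustment. In the P10 window, whose libraries chose Angptl4, the Pearson correlations were -0.534, -0.0339 and 0.439 in the same order and are given without a test. A weak correlation over 9 libraries does not show the absence of a relation. The sum of fibroblast markers was 85024 to 112685 CPM at P10 baseline and 86571 to 120600 CPM in the P13 groups, which overlapped.

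**Figure D3:**
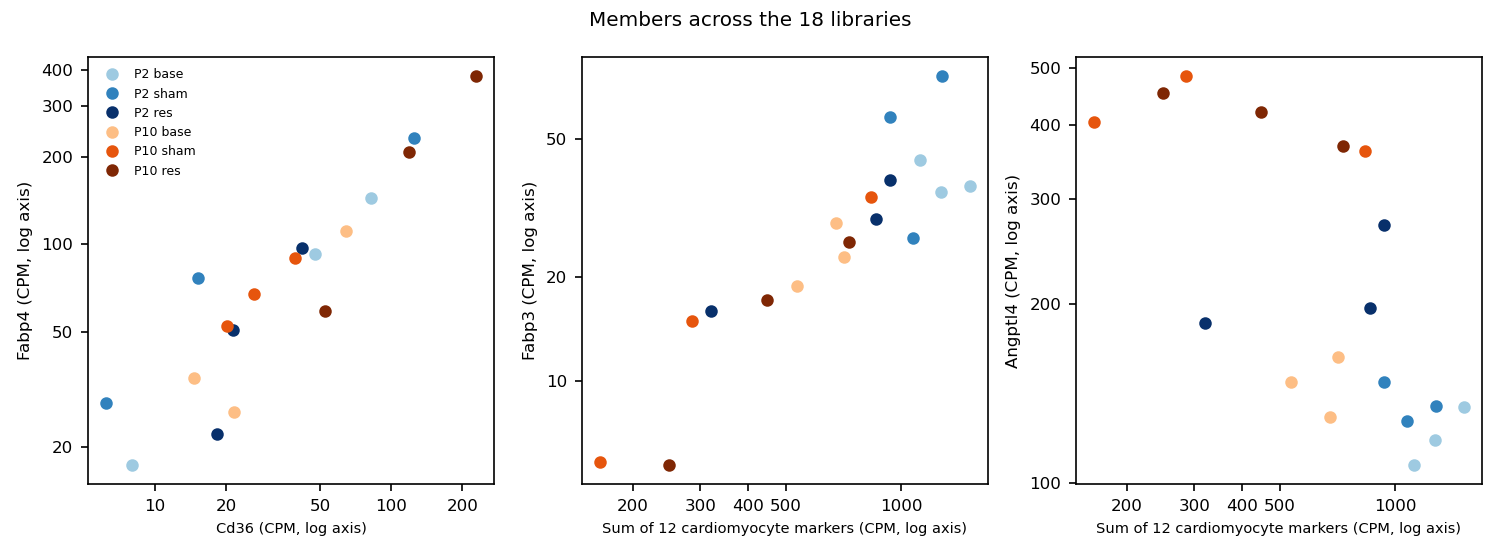
The 18 libraries on logarithmic axes, in CPM, colored by group (base, baseline; sham and res, 3 days after surgery): Fabp4 against Cd36 (left), Fabp3 against the sum of 12 cardiomyocyte markers (middle) and Angptl4 against the same sum (right). Fabp4 was higher where Cd36 was higher (Pearson 0.914 over 18 libraries), Fabp3 was lowest in the libraries with the lowest marker sums, and the 6 P13 libraries had the most Angptl4 at marker sums from 165 to 837 CPM.

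The genes most like Angptl4 over all 18 libraries were Layn (Pearson 0.919), Lgmn (0.896), Htra4 (0.889), Il33 (0.883) and C1ra (0.880), among 9358 genes. Layn encodes a hyaluronan receptor, Lgmn a lysosomal protease, Htra4 a secreted serine protease, Il33 an alarmin cytokine and C1ra a complement protease. They were picked by their likeness to Angptl4 over the same libraries, so a higher level at P13 follows from the choice. Il33, for example, had means of 20.5 ± 3.06 CPM at P10 baseline, 70.7 ± 18.4 CPM in P10 sham +3 days and 127 ± 93.4 CPM in P10 resected +3 days (SD, n = 3). By Spearman correlation Layn (rank 42) and Htra4 (rank 68) left the first 5, and Lgmn, Il33 and C1ra stayed. Of the other 8 fatty acid handling genes, Cpt1a was 196th with a Pearson correlation of 0.707, Pdk4 641st with 0.573 and Plin2 963rd with 0.495, while Fabp5 (-0.606) and Fabp3 (-0.638) ran opposite.

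The wider pathway was read from 10 lists with 138 genes, of which 125 were tested. From P10 to P13 edgeR called none of the 125, with 0.00618% of all genes called after sham surgery and 0.0989% after resection. At an unadjusted p under 0.05 there were 12 and 13 of them, with 7.40% and 6.48% of all genes past that threshold, and DESeq2 called 3 after sham surgery, Etfa and Zbtb16 among them, and 0 after resection. The PPARs themselves were at low levels, as was their partner Rxrg, while the partners Rxra and Rxrb were not. At P10 baseline Ppard had a mean of 4.08 ± 2.28 CPM, Pparg of 1.94 ± 2.41 CPM and Rxrg of 1.30 ± 2.12 CPM. Rxra had a mean of 105 ± 25.4 CPM and Rxrb of 80.3 ± 28.0 CPM (SD, n = 3). Ppara had a mean of 3.39 ± 1.28 CPM at P10 baseline, 3.07 ± 0.595 CPM in P10 sham +3 days and 3.47 ± 2.79 CPM in P10 resected +3 days (SD, n = 3), and the 11 genes of the PPAR and RXR list had median log2 changes of -0.14 and -0.25. The 23 genes of the carnitine shuttle and beta-oxidation tested had medians of 0.25 and -0.00, those of the 14 lipid droplet genes were 0.11 and -0.21, and those of the 11 uptake and binding genes 0.14 and 0.21. The 10 glucocorticoid-responsive genes had the largest medians of the 10 lists, 0.83 after sham surgery and 1.16 after resection.

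Of these 125 genes, 6 had all libraries of both P13 groups above all P10 baseline libraries, and 397 of 16170 genes (2.46%) did so overall. They were Acadl and Etfa (fatty acid oxidation and electron transfer in mitochondria), Pex11a (peroxisome division), Sgk1 (a kinase induced by glucocorticoids), Zbtb16 (a transcriptional repressor induced by glucocorticoids) and Adm (adrenomedullin, a vasodilator peptide). Acadl had log2 changes of 0.27 (SE 0.17) after sham surgery and 0.39 (SE 0.17) after resection, and Etfa of 0.53 (SE 0.18) and 0.44 (SE 0.18), below the values of Angptl4. Sgk1 had means of 72.7 ± 14.5 CPM at P10 baseline, 124 ± 22.5 CPM in P10 sham +3 days and 199 ± 56.7 CPM in P10 resected +3 days. Zbtb16 went from 0.922 ± 0.458 CPM to 16.2 ± 18.6 and 11.9 ± 12.9 CPM, with an SD as large as the mean in both P13 groups. Pex11a had means of 1.27 CPM or less in every one of these groups. No list gene lay below P10 baseline in both groups without overlap, against 1.68% of all genes.

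**Figure D4:**
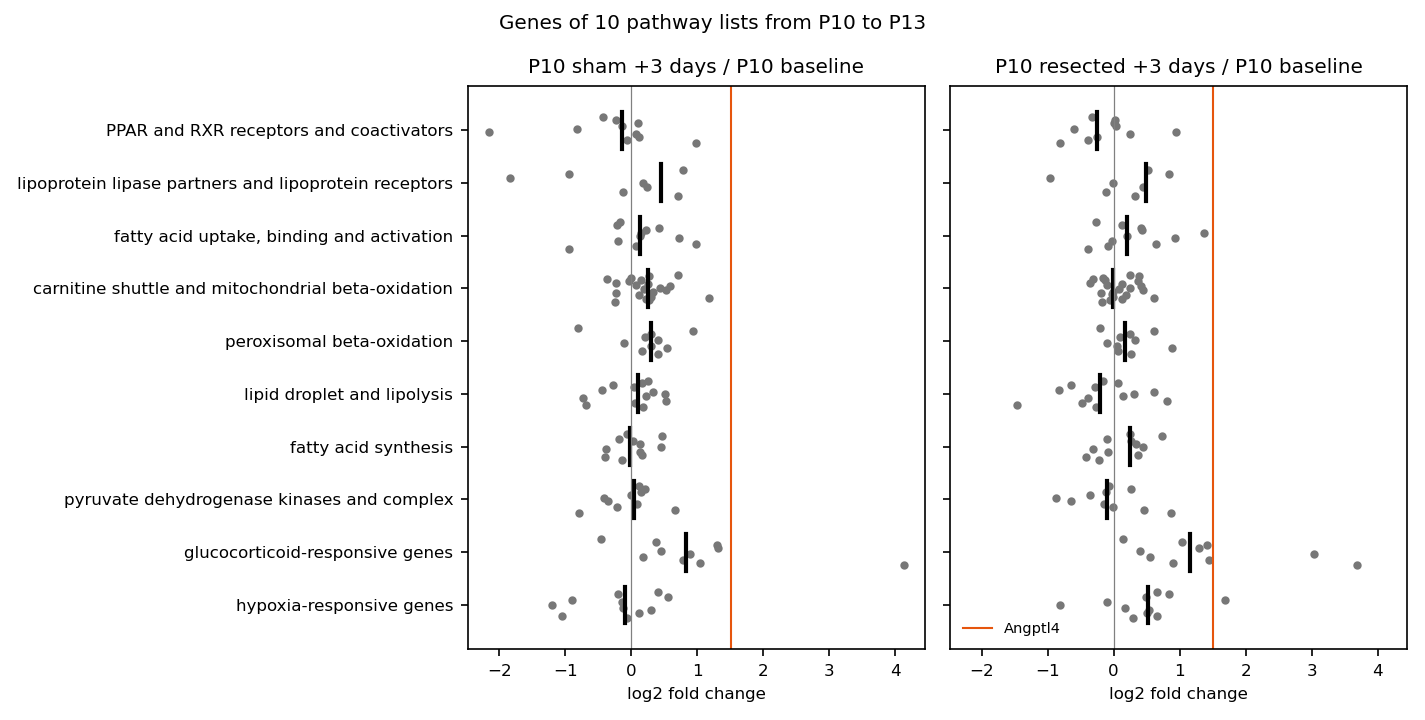
Log2 fold change (x axis) of the genes of 10 pathway lists (y axis) in P10 sham +3 days (left) and P10 resected +3 days (right) against P10 baseline; points are the 115 genes with a mean of at least 1 CPM over the groups compared, black bars the median of each list over all its tested genes, and the orange line is Angptl4. After sham surgery 1 of the 115 genes (Zbtb16) lay above Angptl4, and after resection 3 did (Zbtb16, Mt2 and Ddit4).

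Between the ages, a few genes of the pathway passed the test. From P2 to P10 at baseline, 6 of the 125 were called higher and 1 lower (5.60%, against 4.38% of all genes). Slc27a1, a fatty acid transporter (log2 1.42, SE 0.31), Pnpla2, the triglyceride lipase of lipid droplets (log2 1.05, SE 0.25), Rxrb, a PPAR partner (log2 1.32, SE 0.34), Dusp1 (log2 1.35, SE 0.30) and Adm (log2 0.89, SE 0.24) were among those called higher in edgeR, and Fkbp5, a glucocorticoid-responsive chaperone, was called lower (log2 -1.88, SE 0.49).

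Adm was called in all 3 comparisons of equal treatment between the ages. From P5 to P13 after sham surgery 4 of 125 list genes were called, all higher (3.20%, against 3.18% of all genes), and after resection 3, all higher (2.40%, against 0.860%). DESeq2 called 11 and 10 of the list genes there, with 4.46% and 1.74% of all genes called. Over the 3 days from P2, edgeR called 0 of the 125 after sham surgery (10 at an unadjusted p under 0.05, as were 7.60% of all genes) and 0 after resection (5 at an unadjusted p under 0.05, as were 4.53% of all genes). DESeq2 called 1 of them after sham surgery (Slc2a1, a glucose transporter, with 0.626% of all genes called) and 0 after resection.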

How the data were processed

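RNA of sorted GFP+ cells was reverse transcribed and amplified (SMARTer), tagged with Nextera XT and read single-end. The deposited values are raw counts per gene symbol. To make them, the authors trimmed reads with fastp 0.20.0, mapped them with STAR 2.7.0f to GRCm38.p6 and counted reads on GENCODE M22 exons with featureCounts (Subread 1.6.4) without regard to strand. Reads of overlapping exons on opposite strands therefore cannot be told apart. Member coordinates are from GENCODE M21 on GRCm38, promoters from RefSeq.

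Of 55453 symbols, 28906 had a count and 16170 passed edgeR's filterByExpr (minimum count 10, minimum total 15). Counts were fitted with edgeR 4.0.16 in R 4.3.3 (TMM scaling, quasi-likelihood test, 6 group means, all 18 libraries). Benjamini-Hochberg adjusted p-values under 0.05 over the 16170 genes were called. DESeq2 1.42.0, RLE scaling, no filter, a replicate block and refits without each library were alternatives. Shares called by DESeq2 are of 28759 genes with a p-value, and those of edgeR without the filter are of 28906. Neither can be set directly beside the main edgeR shares, which are of 16170. CPM are TMM-scaled, and log2 CPM used a prior count of 2. Correlations across 9 libraries carry two-sided exact permutation p-values, adjusted over 14 relations. No pair of replicates looked like 1 library deposited again (chi-square per gene 34.2 to 295). Same-numbered libraries deviated together (every correlation above 0.1) in 3 of 15 pairs of groups, namely P10 baseline with P10 sham +3 days or with P2 sham +3 days, and the resected groups of both ages. The test was checked on simulated counts.

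Named genes were the 9 members, the 5 genes most correlated with Angptl4, up to 3 called genes of each pathway list per comparison, and list genes without overlap from P10 to P13. Members, lists and rules were chosen with earlier results of these data known. One list gene that the rule names is counted with its list but not reported here.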

Additional observations from a re-analysis of the deposited data

Results flagged for a closer look

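The effect of resection on Cd36 pointed in opposite directions at the 2 ages. At P10 all 3 resected libraries (227, 52.4 and 119 CPM) were above the mean of the sham libraries (28.5 CPM), and at P2 all 3 resected libraries (41.8, 18.3 and 21.5 CPM) were below the mean of the sham libraries (48.7 CPM), a mean that rested on P2 sham +3 days replicate 3 at 125 CPM. The resection effect at P10 minus that at P2 was 3.06 on the log2 scale (SE 1.30, unadjusted p = 0.0303, edgeR adjusted p = 1.0). Without P2 sham +3 days replicate 3 it was 0.88 (edgeR, adjusted p = 1.0), and without P10 resected +3 days replicate 1 it was 2.43 (edgeR, adjusted p = 1.0). Without the filter on low counts edgeR gave 3.05 with an adjusted p of 0.000126. The P2 effect alone was -0.84 (SE 0.90, edgeR, adjusted p = 1.0) and turned to 1.35 without P2 sham +3 days replicate 3, so the opposite direction at P2 rested on that library. The corresponding difference for Fabp4 was 2.62 (SE 1.17, edgeR, adjusted p = 1.0), and 1.52 without P2 sham +3 days replicate 3.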

How the results depend on the processing

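RLE scaling kept every count of called genes within 1.5 times of the value reported and changed no call of the 9 genes. Leaving out the filter on low counts and DESeq2 raised the number of called genes in every comparison. Without the filter, edgeR called 110 genes for P2 sham +3 days against P2 baseline, 151 for P2 resected +3 days against P2 baseline, 24 for resected against sham at P2 and 76 at P10, 1155 for P10 against P2 baseline, 911 for P13 against P5 after sham surgery and 526 after resection, 549 for P10 baseline against P2 sham +3 days, 151 for P10 sham +3 days and 248 for P10 resected +3 days against P10 baseline, 30 for the difference of resection effects and 171 for the difference of 3-day sham changes. In the same order DESeq2 called 180, 106, 34, 42, 1675, 1284, 499, 907, 167, 210, 26 and 129 genes. Counts of the 9 genes below include Angptl4, whose calls in comparisons with P10 or P13 libraries are not tests. Without the filter 2 were called for resected against sham at P10 (Cd36 and Fabp4) and for the difference of resection effects (the same genes), 2 for P13 against P5 after resection (again Cd36 and Fabp4), and 3 for P10 resected +3 days against P10 baseline. DESeq2 called 2 for P2 resected +3 days against P2 baseline (Angptl4 at 0.86, and Fabp5), 2 for P13 against P5 after resection (Angptl4 and Fabp5) and 1 for the difference of 3-day sham changes. The cause of these differences was not tested.

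When 1 library was left out, called genes ranged from 0 to 9 for P2 sham +3 days against P2 baseline, 0 to 4 for P2 resected +3 days against P2 baseline, 0 to 0 and 0 to 5 for resected against sham at P2 and P10, 264 to 1207 for P10 against P2 baseline, 312 to 416 and 30 to 136 for P13 against P5 after sham surgery and resection, 65 to 442 for P10 baseline against P2 sham +3 days, 0 to 5 and 0 to 58 for the sham and resected groups against P10 baseline, 0 to 4 for the difference of resection effects and 0 to 2 for that of 3-day sham changes. The number of the 9 genes called ranged from 0 to 1, except for 1 to 2 in P13 against P5 after sham surgery. The log2 change of Angptl4 ranged from 1.39 to 1.6 for P10 sham +3 days and from 1.42 to 1.58 for P10 resected +3 days against P10 baseline, from 1.2 to 1.41 for the difference of 3-day sham changes, from 1.49 to 1.70 and 0.82 to 1.11 for P13 against P5 after sham surgery and resection, from 0.12 to 0.28 for P2 sham +3 days and 0.68 to 0.97 for P2 resected +3 days against P2 baseline, from 0.49 to 0.78 and -0.10 to 0.11 for resected against sham at P2 and P10, from 0.21 to 0.38 and 0.02 to 0.18 for P10 baseline against P2 baseline and against P2 sham +3 days, and from -0.79 to -0.50 for the difference of resection effects.

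The labels do not say what a replicate number shares. The sample titles carry other numbers, and there replicate 1 of P10 baseline, P10 sham +3 days and P2 sham +3 days share a number. Deviations correlated at 0.378 between P10 baseline and P2 sham +3 days for these libraries. The value was 0.328 between P10 baseline and P10 sham +3 days and 0.291 between the sham groups. A block by the title numbers was not fitted, and what these numbers share was not tested. The correlation of deviations between same-numbered libraries of different groups ranged from -0.135 to 0.378 and was above 0.1 in 15 of 45 pairs of libraries, against 12 of 90 pairs with different numbers. In 3 of 15 pairs of groups all same-numbered libraries were above 0.1. A fit with the replicate number as a block called 1 gene for resected against sham at P2 and 1 at P10, where none was called without it, and changed no call of the 9 genes. No log2 change of the 9 genes that passed a test reversed under any alternative. With 3 libraries per group, the SE of the log2 change from P10 baseline ran from 0.20 for Angptl4 to 0.93 for Cd36.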
